A study of Mus musculus with 4 samples.

Results

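The genes described here are 9 genes of the contractile machinery that mammary myoepithelial cells share with smooth muscle, together with a receptor and a transcription factor of the myoepithelial cell: *Acta2*, *Actg2*, *Myh11*, *Mylk*, *Cnn1*, *Tagln*, *Lmod1*, *Oxtr* and *Trp63*. They were taken by name from a deposited table of 30506 loci, of which 22483 carried a gene name. Each of the 9 names had 1 row and shared it with no other name, and all 9 rows exceeded 1 FPKM in at least one genotype. FPKM counts sequenced fragments relative to transcript length and to all fragments mapped, so that levels of different genes can be compared.

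RNA came from whole mammary glands of 4 mice of mixed 129SV::FVB/N::C57BL/6 background at 2 months of age, 2 of them miR-21+/+, called control here, and 2 miR-21-/-. The study refers to the glands as virgin tissue. The deletion is labelled as homozygous with no Cre driver, so epithelium, vessels and stroma of a miR-21-/- gland shared the genotype. The study compared the genotypes to look for genes that depend on this microRNA in the gland. The table holds 1 FPKM value per genotype that combines both mice, so no value per mouse, no error between mice and no test across mice can be given, and every difference below is without a replicate check.

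Myoepithelial cells form the basal layer of mammary ducts and contract when oxytocin from the pituitary reaches them, which pushes milk toward the nipple. The oxytocin receptor couples through a Gq protein to release of calcium, calcium-bound calmodulin activates myosin light chain kinase, and phosphorylated smooth muscle myosin pulls on actin filaments. The same actins, myosin and actin-binding proteins are made by the smooth muscle of blood vessels and of the nipple, so in whole tissue most of these genes do not belong to 1 cell type. In such bulk RNA, more cells of a type cannot be told apart from more RNA per cell.

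MicroRNA miR-21 itself is shown because its seed, bases 2 to 8 in capitals, is what a direct target would pair with. The mature sequence of mmu-miR-21a-5p in RefSeq (GRCm38.p6), 5′ to 3′, is given on the next line.
mmu-miR-21a-5p: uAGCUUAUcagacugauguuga
The seed pairs with ATAAGCT in a transcript. The longest annotated 3′ UTR of each of the 9 genes, from 80 nt in *Actg2* to 3390 nt in *Oxtr*, was searched in the GENCODE annotation of mm9, and 0 of the 9 held ATAAGCT. For comparison, 6.98% of 13029 named and annotated genes past 1 FPKM held it. Over all 22 annotated transcripts of the 9 genes with a 3′ UTR there was 1 match to the shorter pairing TAAGCTA, in a *Trp63* transcript with a 3′ UTR of 1635 nt.

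All 9 genes were higher in miR-21-/- than in control glands in the deposited values, although *Acta2*, *Cnn1* and *Actg2* were lower once both columns were scaled to the same sum over all loci. The log2 ratio of miR-21-/- to control ran from 0.25 for *Actg2* to 1.47 for *Oxtr*, with a median of 0.71. The median over all 13565 named loci above 1 FPKM was −0.03, and their middle 50% lay between −0.18 and 0.11. A share of 44.3% of these loci was higher in miR-21-/- glands by any amount. Of the 9 genes, 7 were higher by 1.5-fold or more, against 5.53% of the loci. At 2-fold or more there was 1 of the 9, *Oxtr*, against 2.09% of the loci. The values closest to the 1.5-fold limit were *Acta2* at 1.54-fold and *Cnn1* at 1.49-fold. The FPKM of the 9 genes summed to 423 in control and 691 in miR-21-/- glands, a ratio of 1.63.

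**Figure D1:**
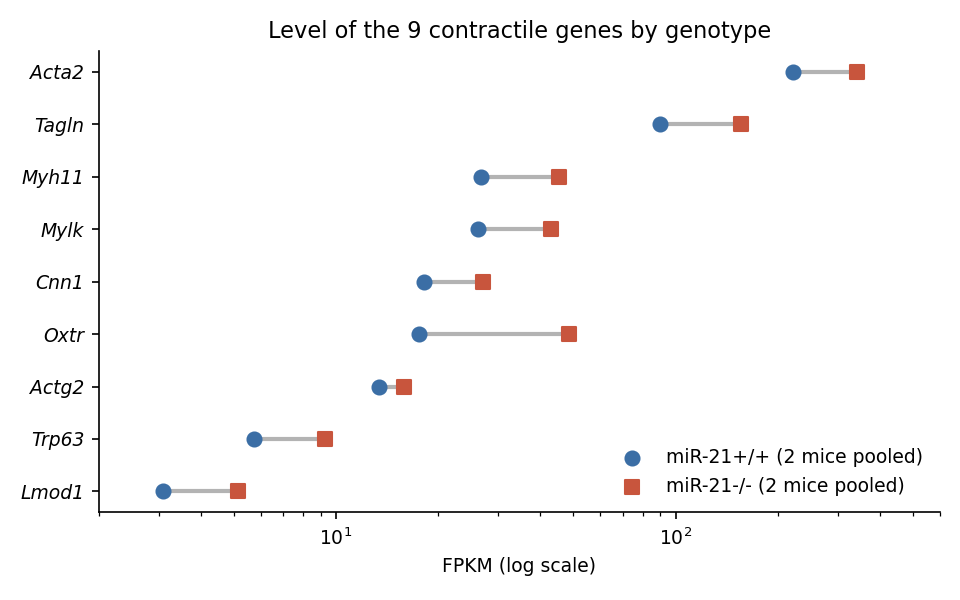
Level of each gene in FPKM (log axis) in control, miR-21+/+, glands (circles) and miR-21-/- glands (squares), each point 1 deposited value that combines 2 mice, with no error bars because none can be computed. The squares lie to the right of the circles for all 9 genes in the deposited values (under equal sums over all loci *Acta2*, *Cnn1* and *Actg2* would turn), with the widest gap for *Oxtr*, from 17.5 to 48.7 FPKM.

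Oxytocin signalling was represented by *Oxtr*, the receptor through which oxytocin makes myoepithelial cells contract (mm9 chromosome 6, 112423677 to 112441313, minus strand, 4 exons at most in the annotation). Its level was 17.5 FPKM in control and 48.7 FPKM in miR-21-/- glands. This was a 2.78-fold difference, a log2 ratio of 1.47, and only 105 of the 13565 named loci had a higher ratio. *Oxtr* therefore stood apart from the other 8 genes, whose highest log2 ratio was 0.79. Its place among the levels moved as well, since 70.4% of the loci had a lower level in control and 90.9% in miR-21-/- glands. Within the sum of the 9 genes *Oxtr* made up 4.15% in control and 7.04% in miR-21-/- glands. Per FPKM of *Krt5*, a keratin of the same basal cells, there were 0.590 FPKM of *Oxtr* in control and 1.14 in miR-21-/- glands, and per FPKM of *Trp63* there were 3.06 and 5.24.

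*Trp63* encodes p63, the transcription factor that maintains basal epithelial cells (chromosome 16, 25683851 to 25892179, plus strand, 14 exons at most). It was at 5.74 FPKM in control and 9.30 FPKM in miR-21-/- glands, a log2 ratio of 0.70. Its ratio to *Krt5* was close in both genotypes, 0.193 and 0.218 FPKM of *Trp63* per FPKM of *Krt5*. Its share of the sum of the 9 genes was 1.36% in control and 1.34% in miR-21-/- glands.

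The actins came next. *Acta2*, smooth muscle α-actin (chromosome 19, 34314929 to 34330091, minus strand, 9 exons), was the most abundant of the 9 genes, at 222 FPKM in control and 341 FPKM in miR-21-/- glands. Its log2 ratio was 0.62, and it supplied 52.5% of the sum of the 9 genes in control and 49.4% in miR-21-/- glands. *Actg2*, smooth muscle γ-actin (chromosome 6, 83462903 to 83486245, minus strand, 9 exons at most), was at 13.4 and 15.9 FPKM. Its log2 ratio of 0.25 was the lowest of the 9, and 14.2% of the named loci lay above it. There were 16.6 FPKM of *Acta2* per FPKM of *Actg2* in control and 21.5 in miR-21-/- glands, so the pair of actins was not higher in proportion. Actin genes resemble each other, and reads can be shared between them. Of the words of 36 bases in the longest *Acta2* transcript, 1.20% also occurred in the transcript of another gene, most often the cytoplasmic actin *Actg1*, and 0 occurred in the skeletal muscle actin *Acta1* or in *Actg2*. For *Actg2* 0.231% of such words were shared, with the cardiac actin *Actc1*. The read length is not given in the sources used here, and with words of 50 bases the shares were 0.404% for *Acta2* and 0 for *Actg2*.

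The motor and its activating enzyme had almost the same level and the same ratio. *Myh11*, the heavy chain of smooth muscle myosin (chromosome 16, 14193459 to 14291501, minus strand, 42 exons at most), was at 26.7 FPKM in control and 45.5 FPKM in miR-21-/- glands, a log2 ratio of 0.77. *Mylk*, the myosin light chain kinase (chromosome 16, 34785036 to 35002523, plus strand, 32 exons at most), was at 26.3 and 43.1 FPKM, a log2 ratio of 0.71. Words of 36 bases shared with other genes made up 0.819% of the longest *Myh11* transcript, mostly with the non-muscle myosin *Myh9*, and 0 of that of *Mylk*. The table gives the locus of *Mylk* also to *1700119H24Rik*, which was at 0.0299 and 0.0223 FPKM.

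Among the actin-binding proteins, *Tagln* (transgelin, also called SM22) was the second most abundant of the 9 genes. It was at 90.1 FPKM in control and 156 FPKM in miR-21-/- glands, a log2 ratio of 0.79, the highest after *Oxtr*. The table gives it the locus 45646612 to 45744141 on chromosome 9, which it also gives to *Bace1*, *Pcsk7* and *Rnf214*. The annotated *Tagln* gene takes up only 45737711 to 45744141, on the minus strand with 5 exons, and 65 of its exonic bases overlap *Pcsk7* on the other strand. The library kit did not mark strand, so reads of this overlap cannot be assigned. The level of *Pcsk7* was 8.88 and 9.67 FPKM. *Cnn1*, calponin, which binds actin and slows the myosin motor (chromosome 9, 21903697 to 21913665, plus strand, 7 exons), was at 18.2 and 27.0 FPKM, a log2 ratio of 0.57. *Lmod1*, leiomodin, which starts new actin filaments in smooth muscle (chromosome 1, 137221390 to 137264642, plus strand, 5 exons at most), was the lowest of the 9, at 3.10 and 5.13 FPKM, a log2 ratio of 0.73. With 1 FPKM added to both values its log2 ratio was 0.58.

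Among these 7 contractile genes *Actg2* had a share of 2.29% of the sum of the 9 genes in miR-21-/- glands, against 3.16% in control. The shares of *Acta2* and *Cnn1* were smaller as well, at 49.4% against 52.5% and at 3.90% against 4.29%. Apart from *Actg2*, the log2 ratios of the 7 lay between 0.57 and 0.79. Per FPKM of *Acta2* there were 0.406 FPKM of *Tagln* in control and 0.456 in miR-21-/- glands, 0.121 and 0.133 of *Myh11*, 0.118 and 0.126 of *Mylk*, and 0.0818 and 0.0791 of *Cnn1*. The levels of the 7 differed by up to 71.6-fold within control glands, whereas their log2 ratios lay between 0.25 and 0.79. The order of the 9 genes by level was *Acta2*, *Tagln*, *Myh11*, *Mylk*, *Cnn1*, *Oxtr*, *Actg2*, *Trp63* and *Lmod1* in control glands. In miR-21-/- glands *Oxtr* stood in the third place and the order of the other 8 was the same. Whether neighbours in this order, such as *Myh11* and *Mylk*, differ cannot be said without a spread over mice.

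**Figure D2:**
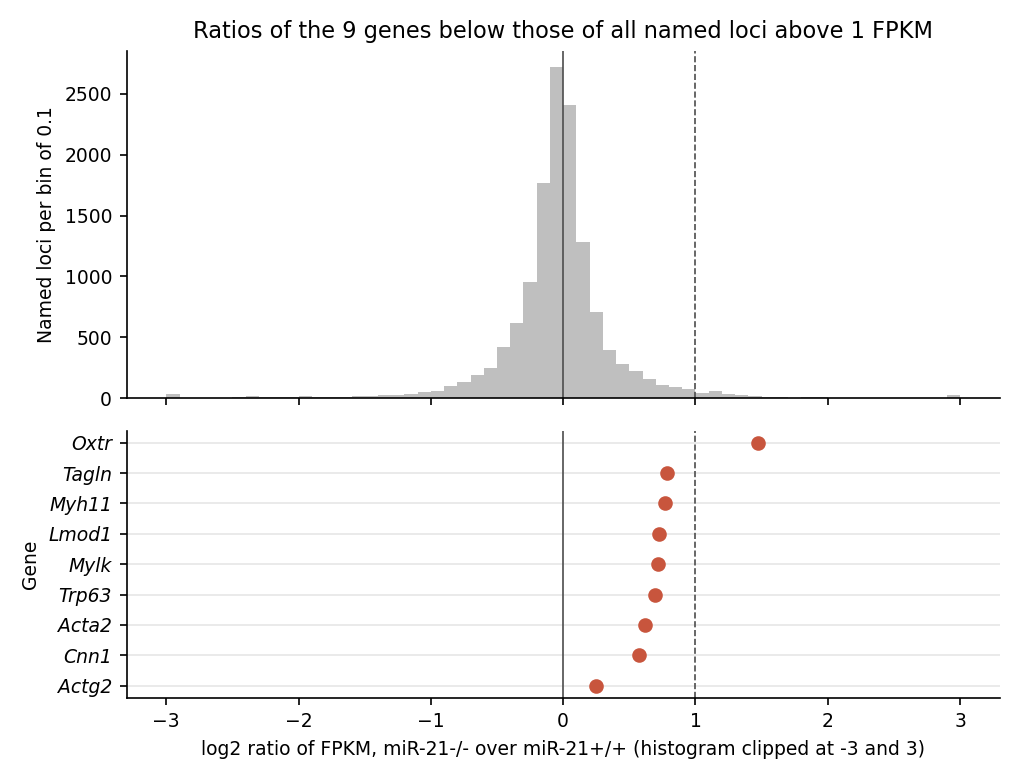
Histogram of the log2 ratio of FPKM, miR-21-/- over control, for 13565 named loci above 1 FPKM in at least one genotype (bins of 0.1, values beyond the axis clipped to −3 and 3), above the log2 ratio of each of the 9 genes (points, 1 pooled value each). The solid line marks equal levels and the dashed line 2-fold; apart from *Actg2* at 0.25 and *Oxtr* at 1.47, the genes lie between 0.57 and 0.79, and scaling to equal sums over all loci would move every value by −0.63 and put *Acta2*, *Cnn1* and *Actg2* below 0.

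The promoter table of RefSeq (GRCm38.p6, 250 bases before to 50 bases after the start) held 5 of the 9 genes: *Acta2*, *Cnn1*, *Lmod1*, *Mylk* and *Oxtr*. *Actg2*, *Myh11*, *Tagln* and *Trp63* were not matched. Smooth muscle genes are known for CArG boxes, 10 bases long, at which serum response factor binds: a pair of C, then 6 bases that are A or T, then a pair of G. None of the 5 promoters held this exact motif, and 1.63% of all 32851 promoters did. A search of 1 strand covers both for a palindromic pattern. Boxes with an altered base escape this search, so it does not show that a promoter lacks CArG boxes. With exactly 1 C or G allowed among the 6 central bases, 8.50% of all promoters held a match and 0.679% held at least 2. *Acta2* alone of the 5 held such matches, CCCTATATGG from 84 bases and CCTTGTTTGG from 34 bases before the annotated start. The promoters of *Acta2*, the most abundant of the genes, and of *Oxtr*, the one with the highest ratio, are printed with these matches in capitals.
*Acta2* (GRCm38.p6 chr19:34255324-34255623, minus strand): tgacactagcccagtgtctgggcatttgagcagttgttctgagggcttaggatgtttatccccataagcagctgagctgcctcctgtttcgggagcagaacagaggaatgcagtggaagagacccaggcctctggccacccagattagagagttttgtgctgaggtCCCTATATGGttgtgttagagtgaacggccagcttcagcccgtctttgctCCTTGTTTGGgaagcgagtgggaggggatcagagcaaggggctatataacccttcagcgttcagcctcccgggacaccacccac
*Oxtr* (GRCm38.p6 chr6:112489776-112490075, minus strand): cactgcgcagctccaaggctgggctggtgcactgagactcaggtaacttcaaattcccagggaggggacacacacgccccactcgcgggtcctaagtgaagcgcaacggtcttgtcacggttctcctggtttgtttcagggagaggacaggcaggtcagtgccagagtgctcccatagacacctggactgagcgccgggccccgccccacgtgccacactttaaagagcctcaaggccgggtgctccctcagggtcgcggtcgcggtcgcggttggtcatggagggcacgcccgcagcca
These matches describe letters in the window and were not tested as binding sites. Their distances rest on the annotated start, which was not checked.

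Other genes of the contractile apparatus and its filaments, 27 in a list that leaves out the 9, were mostly higher as well. All 27 exceeded 1 FPKM, 23 were higher and 4 lower, 8 were higher by 1.5-fold or more, and the median log2 ratio was 0.26. Of all 13565 named loci above 1 FPKM, 44.3% were higher by any amount and 5.53% by 1.5-fold or more. Lower by 1.5-fold or more were 864 and by 2-fold or more 347. These background values apply to each list below as well. The tropomyosins *Tpm1* and *Tpm2*, which lie along the actin filament, were at 220 and 376 FPKM and at 101 and 180 FPKM, log2 ratios of 0.77 and 0.83. *Nexn*, an actin-binding protein, had the highest log2 ratio of the list, 0.95, from 3.35 to 6.48 FPKM. The others past 1.5-fold were *Csrp1* at 0.68, *Synm* at 0.74, *Smoc2* at 0.74, *Itga8* at 0.66 and *Des* at 0.64. *Smoc2* and *Itga8* are counted in the list but are not parts of the apparatus or its filaments. In whole glands the values of this list cannot be assigned to smooth muscle, skeletal muscle or myoepithelial cells. Skeletal muscle genes, described below, had like ratios. The locus with the highest level, the myosin light chain row that merges *Myl6* and *Myl6b*, was at 594 and 629 FPKM, a log2 ratio of 0.08.

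The regulators of the apparatus had ratios spread around 0. Of 9 genes for serum response factor and its cofactors, 8 exceeded 1 FPKM, 3 of them were higher and 5 lower, 0 passed 1.5-fold, and the median was −0.02. *Klf4*, which restrains smooth muscle genes, was at 20.7 and 20.8 FPKM, and the row that merges *Elk1* with *Cfp* was at 61.7 and 50.7 FPKM. *Srf* itself and its muscle cofactor *Myocd*, named after their values were seen, were at 10.7 and 14.2 FPKM and at 0.112 and 0.0899 FPKM. Of 22 genes for oxytocin, Gq and calcium signalling, 21 exceeded 1 FPKM, 9 were higher and 12 lower, and the median was −0.03. The list holds genes for Gq, phospholipase C, calcium release and calmodulin, which act between *Oxtr* and *Mylk*. It also holds genes outside that stretch, such as *Rhoa* and its kinases, ion channels and *Rgs2*. *Calm2* was at 163 and 182 FPKM, and the row that merges *Rhoa* with *Amt* and *Nicn1* was at 191 and 184 FPKM. The 1 gene past 1.5-fold was *Kcnmb1*, a subunit of the calcium-activated potassium channel of smooth muscle, from 1.05 to 1.93 FPKM.

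The glands held the defining markers of both basal and luminal epithelium. Of 26 basal and myoepithelial genes, 23 exceeded 1 FPKM, 19 were higher and 4 lower, and the median log2 ratio was 0.28. By 1.5-fold or more 5 were higher, against 5.53% of all named loci above 1 FPKM. *Krt5* was at 29.8 and 42.7 FPKM, a log2 ratio of 0.52. The row that merges *Krt14* and *Krt16* was at 22.9 and 38.7 FPKM, a log2 ratio of 0.76. *Lamb3*, *Sox10*, *Cdh3* and *Lama3* had log2 ratios of 1.16, 1.13, 1.00 and 0.72. In the other direction, *Mme*, the peptidase CD10 of the myoepithelial surface, was at 38.4 and 26.5 FPKM, a log2 ratio of −0.53. Of 24 luminal genes, 23 exceeded 1 FPKM, with 17 higher, 6 lower and a median of 0.54. By 1.5-fold or more 10 were higher and 3 lower. Their log2 ratios ran from −1.91 for *Cited1* to 2.30 for *Pgr*, a wider range than that of the 9 contractile genes, and *Ehf* at 1.85 and *Ltf* at −1.44 were also past 2-fold. The rows of the luminal list with the highest level were *Ly6a* at 254 and 179 FPKM and *Krt19* at 223 and 247 FPKM. In whole glands such levels, that of *Ly6a* above all, cannot be assigned to luminal cells.

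Markers of vessels, in lists that leave out the 9 genes, had medians near 0. Most of the 9 genes are also made by smooth muscle of vessels, so these medians alone do not describe vascular smooth muscle. Of 21 genes of pericytes and vascular smooth muscle, 20 exceeded 1 FPKM, 9 were higher and 11 lower, the median log2 ratio was −0.02, and the sum was 262 FPKM in control and 258 FPKM in miR-21-/- glands. *Rgs5*, a pericyte marker, was at 58.5 and 56.8 FPKM, and *Mcam* was at 51.2 and 61.4 FPKM. The 12 endothelial genes had a median of 0.07, with *Cdh5* at 43.8 and 47.3 FPKM and *Cldn5* at 35.98 and 51.25 FPKM. The log2 ratio of *Cldn5*, 0.51, was the highest of the endothelial list. The 13 fibroblast genes had a median of −0.05, with *Col3a1* at 1999 and 1654 FPKM and *Col1a2* at 933 and 852 FPKM.

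Skeletal muscle genes had ratios like those of the 9 genes. All 18 genes of that list were higher in miR-21-/- glands in the deposited values and under equal sums over all loci 15 were. In the deposited values 16 were higher by 1.5-fold or more, against 5.53% of all named loci above 1 FPKM, and the median log2 ratio was 0.75. Their FPKM summed to 1768 in control and 2901 in miR-21-/- glands, a ratio of 1.64, next to 1.63 for the 9 contractile genes. *Acta1*, the skeletal muscle actin, was at 328 and 526 FPKM, and *Ckm*, muscle creatine kinase, was at 214 and 338 FPKM. *Mb*, *Myh1* and *Myh2* were past 2-fold, with log2 ratios of 1.86, 1.47 and 1.20. None of the list was at 0, the lowest being *Mb* at 2.07 FPKM in control glands. *Des* belongs to this list and to the contractile list. The part of tissue composition in the values of the 9 genes was not tested.

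**Figure D3:**
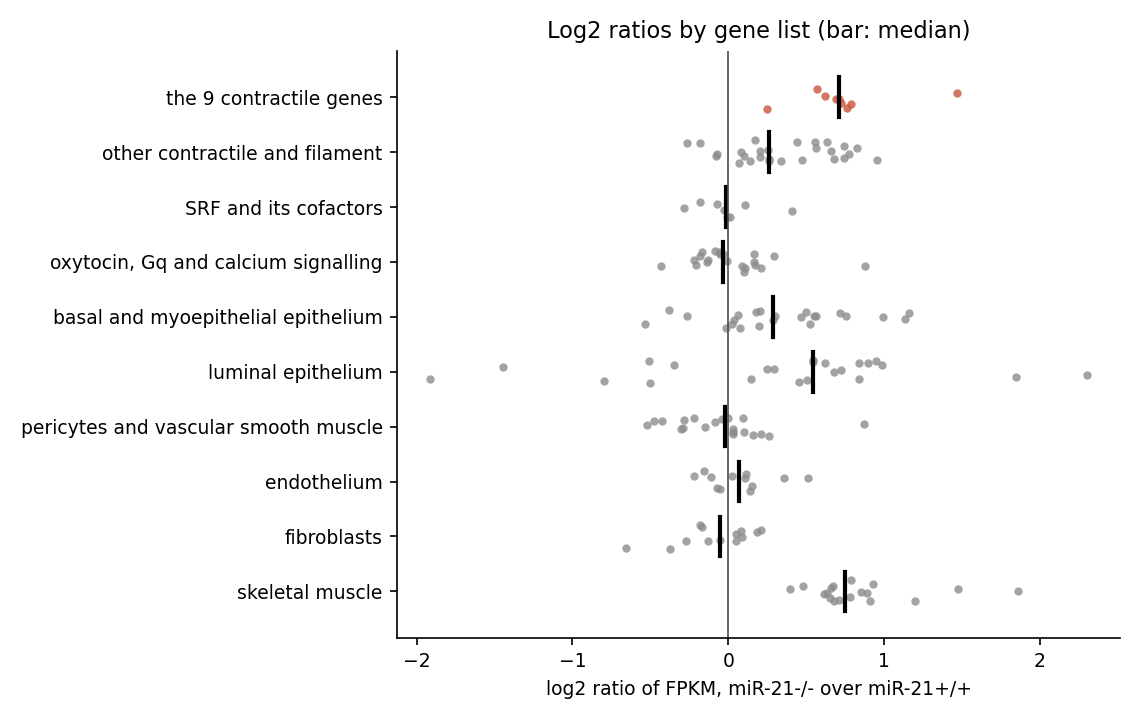
Log2 ratio of FPKM, miR-21-/- over control, for each gene above 1 FPKM (points, 1 pooled value each, spread vertically for legibility) in the 9 contractile genes and 9 other gene lists, with the median of each list as a bar. The medians were 0.71 for the 9 genes, 0.75 for skeletal muscle, 0.54 for luminal and 0.28 for basal epithelium, 0.26 for other contractile genes and between −0.05 and 0.07 for the remaining lists. Under equal sums over all loci every value would be lower by 0.63, and only the medians of the 9 genes, at 0.083, and of skeletal muscle, at 0.12, would be above 0.

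Genes next to the 9 genes on the chromosomes were compared with them. Within 150 kb there were 39 named loci above 1 FPKM, counted once for each gene they neighbour, of which 1 was higher by 1.5-fold or more and 0 lower. Of all 13565 named loci above 1 FPKM, 750 (5.53%) were higher and 864 lower by as much. With so few neighbours these counts are not read as a result about the neighbourhoods. The 1 higher neighbour was *Elf3*, an epithelial transcription factor on the 5′ side of *Lmod1*, from 7.57 to 12.2 FPKM, named after its value was seen. *Stambpl1* and *Fas*, on either side of *Acta2*, had log2 ratios of −0.13 and 0.10. Beside *Oxtr*, *Lmcd1* had a log2 ratio of 0.07 and *Rad18* of 0.13, and *Cav3*, muscle caveolin, was under 1 FPKM in both genotypes, at 0.512 and 0.942.

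**Figure D4:**
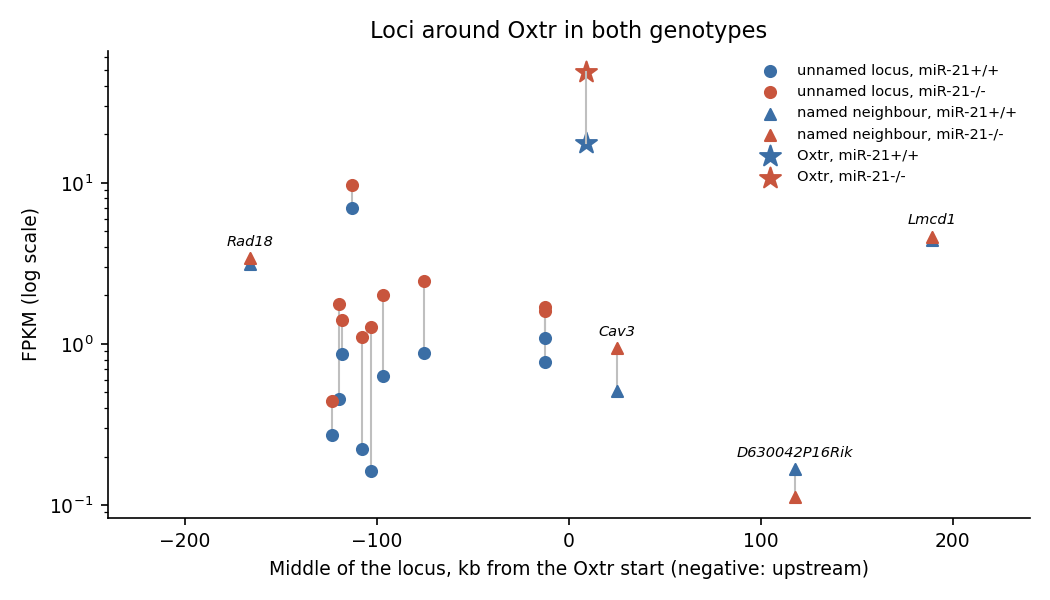
FPKM (log axis) of *Oxtr* (stars), of its named neighbours (triangles) and of loci without a gene name (circles) in control, miR-21+/+, glands (blue) and miR-21-/- glands (red), against the distance in kb of the middle of each locus from the *Oxtr* start, with 1 pooled value per point and negative distances upstream. The 10 unnamed loci, all upstream, had a median of 0.702 FPKM in control and 1.66 FPKM in miR-21-/- glands.

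Facts of the whole table bear on these values as follows. The row that merges *Mir21* with its host gene *Vmp1* was at 42.5 and 68.2 FPKM, and since poly(A) RNA does not measure the mature microRNA, it does not check the genotype labels. FPKM summed over all loci to 759295 in control and 1175603 in miR-21-/- glands, but over named loci to 380567 and 355385. Scaling both columns to the same sum over all loci moved every log2 ratio, the median of all named loci included, by −0.63, so that relative to that median the 9 genes stood where they did before. On that scale 6 of the 9 genes were higher, *Acta2* at −0.01, *Cnn1* at −0.06 and *Actg2* at −0.38 were lower, and *Oxtr* was at 0.84. Equal sums over named loci moved the ratios by 0.10 and put the medians of 4 lists just above 0, at 0.08 for serum response factor, 0.07 for oxytocin signalling, 0.08 for pericytes and 0.05 for fibroblasts.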

How the data were processed

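Poly(A) RNA of mammary glands was sequenced as single-end reads with a kit that does not mark strand. TopHat alignment to the mouse build mm9 is named by the labels, and the study's methods add Cufflinks for the estimate of levels. The authors deposited a Cuffdiff table with 1 FPKM value per genotype that combines 2 mice. CASAVA is also named in the submitters' processing notes. Program versions, gene annotation and read length are not given in the sources used here. The table also holds the status, fold change, test statistic, p-value, q-value and call of the authors' own comparison. These 6 columns were not used.

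The log2 ratio was computed as log2 of the miR-21-/- FPKM minus log2 of the miR-21+/+ FPKM, without a pseudocount, over named loci above 1 FPKM in at least one genotype. With 1 value per genotype there was no test, and fold limits of 2 and 1.5 were used. A name with several rows was represented by the row with the highest mean. Without read counts the depth is unknown. Of 1000 low values of unnamed loci multiplied by their length, 9.4% lay within 0.05 of a whole multiple of the lowest. The values combine 2 mice and the length was the genomic span, so this share cannot tell whether steps of whole reads are present. The script was tested on simulated data. Table starts count from 0, since 8295 annotated gene starts matched after adding 1 and 477 as written. Coordinates are given counting from 1.

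The genes and lists were chosen with earlier results of these data known. All 9 genes are named. From each list the text names the 2 genes with the highest mean FPKM and those past 2-fold, and from the contractile, serum response factor, oxytocin and basal lists also those past 1.5-fold. Genes of like pattern were not ranked, because 2 pooled values give only a level and a ratio. Python 3.11.15, numpy 2.4.6, pandas 2.3.3 and matplotlib 3.10.9 were used. Alternatives were pseudocounts of 1 and 0.1 FPKM, 3 scalings, other fold limits and minimums, summed rows, and leaving out *Oxtr* or *Des*.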

Additional observations from a re-analysis of the deposited data

Results flagged for a closer look

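Loci without a gene name upstream of *Oxtr*, which no comparison above uses, were higher in miR-21-/- glands. Within 150 kb of *Oxtr* the table holds 10 such loci, all on its upstream side between 112453316 and 112565570 on chromosome 6 (mm9), and 10 of 10 were higher in miR-21-/- glands. The nearest began 12.0 kb and the farthest 122 kb from *Oxtr*. Their median was 0.702 FPKM in miR-21+/+ and 1.66 FPKM in miR-21-/- glands, and their log2 ratios ran from 0.48 to 2.96 with a median of 1.27. Of the 10 loci, 6 were higher by 2-fold or more. The longest, 9749 bp, was also the most abundant, at 6.98 and 9.75 FPKM. Among all 3862 unnamed loci above 1 FPKM, 45.3% were higher by any amount and 18.1% by 2-fold or more, with a median log2 ratio of −0.10. These shares are not matched to the 10 loci, of which 9 passed 1 FPKM, most of them only in miR-21-/- glands. Several of the 10 loci adjoin each other, such as 112548383 to 112549089 and 112549148 to 112558896. The 10 therefore cannot be read as 10 separate observations. The farther ones lie nearer to *Rad18*, whose locus begins at 112567739, than to *Oxtr*. *Rad18* was at 3.12 FPKM in miR-21+/+ and 3.40 FPKM in miR-21-/- glands. The window was chosen after the values had been seen, and the relation of these loci to *Oxtr* or *Rad18* was not tested. Unnamed loci within 150 kb of *Actg2*, *Cnn1* and *Lmod1* went both ways.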

How the results depend on the processing

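No paired analysis was possible because both mice of a genotype are combined in 1 deposited value, and fits without each mouse in turn were not run for the same reason. As there is no replicate error, a log2 value was counted as moved when it changed by more than 0.1. The number of genes past 2-fold was 1 as reported, 7 at a 1.5-fold limit, 0 at a 3-fold limit and 0 without *Oxtr*, an alternative chosen after seeing the data. With both columns scaled to the same sum over all loci it was 0, the number past 1.5-fold was 1 in place of 7, 6 of the 9 genes were higher, and the median log2 ratio was 0.083 in place of 0.71. The other scalings, both pseudocounts, a minimum of 5 FPKM, no minimum and leaving out *Oxtr* gave between 6 and 8 genes past 1.5-fold and medians from 0.62 to 0.81. The unknown depth limits low genes such as *Lmod1* most, whose ratio alone of the 9 moved with a pseudocount of 1 FPKM. Leaving out merged rows or summing rows of a name could not change a value of the 9 genes, since each name had 1 row that it shared with no other.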

Other observations

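Values are given for 3 other receptors that can signal through Gq to contract smooth muscle, all chosen after their values were seen. *Adra1a*, the α1A-adrenergic receptor, was at 2.36 FPKM in miR-21+/+ and 4.31 FPKM in miR-21-/- glands, a log2 ratio of 0.87. *Agtr1a*, an angiotensin receptor, was at 15.2 and 15.6 FPKM, and *Ednra*, an endothelin receptor, was at 18.8 and 13.1 FPKM, log2 ratios of 0.03 and −0.52.

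Genes that anchor basal cells to the basement membrane differed among themselves. *Lamb3* and *Lama3*, laminin chains, had log2 ratios of 1.16 and 0.72. *Col17a1*, a hemidesmosome collagen, was at 7.68 and 11.2 FPKM, a log2 ratio of 0.55, while the integrin chains *Itga6* and *Itgb4* had log2 ratios of 0.07 and 0.03. These genes, too, were partly named after their values were seen.

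Beyond *Mylk*, from 146 kb past its end on chromosome 16, 5 unnamed loci between 35148740 and 35154885 were all higher in miR-21-/- glands. The most abundant was at 1.22 and 4.33 FPKM, and 4 of the 5 exceeded 1 FPKM, most of them only in miR-21-/- glands. Among all unnamed loci above 1 FPKM, 45.3% were higher by any amount and 18.1% by 2-fold or more. The 5 loci lie side by side and do not count as separate observations, and the window was chosen after values had been seen. They reach the edge of the 150 kb window, so their number depends on that limit. Unnamed loci in the windows of other genes were not all higher. For *Actg2* 1 of 2 was higher, for *Cnn1* 1 of 2, for *Lmod1* 2 of 3 and for *Tagln* 1 of 1. The named gene between them and *Mylk*, *Ptplb*, was at 21.9 and 20.5 FPKM.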
